A study of Mus musculus with 6 samples.

Results

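The nuclear hormone receptors are transcription factors that bind small lipophilic ligands such as steroids, thyroid hormone, retinoids, bile acids and sterols, or that work without a known ligand. Of the 21700 genes of the deposited table, 39 were taken by gene symbol from a list of this superfamily, with the clock repressors Nr1d1 and Nr1d2 left out, and all 39 had a row. They were measured by RNA sequencing in biliary epithelial cells, the lining cells of the bile ducts, which were isolated by flow sorting of digested liver. The mice were females of the C57BL/6 strain with the WT genotype. The compared groups were 3 libraries from pregnant mice, labelled dpc8 (day 8 of pregnancy), and 3 libraries from non-pregnant mice, with no other labelled difference. Mouse age and the antibodies that defined the sorting gate were not stated in the labels. No label ties a library to its own animal, and the p-values below therefore cover only variation among these libraries, part of which may be technical.

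Most receptors of this superfamily share a DNA-binding domain of zinc fingers and a ligand-binding domain that exchanges corepressors for coactivators when the ligand is bound. Steroid receptors sit with chaperones until hormone arrives and then bind DNA mostly as homodimers, whereas thyroid hormone, retinoic acid, vitamin D, bile acid, oxysterol, xenobiotic and fatty acid receptors pair with a retinoid X receptor. In the liver the family sets bile acid, sterol, lipid and drug metabolism. In bile duct cells the bile acid, vitamin D and glucocorticoid receptors are known for their part in secretion and in defence against bile.

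Values are FPKM, which divide the fragments of a gene by its exon length and by the library total, so levels can be compared between genes. A library held 25047887 to 30662595 fragments in the pregnant group and 28916147 to 35083751 in the non-pregnant group, as recovered from the steps in the FPKM values. The sorted cells carried the markers of bile duct epithelium in both groups, with Epcam at 190 to 195 FPKM in pregnant and 182 to 184 FPKM in non-pregnant libraries and Sox9 at 283 to 332 FPKM and 276 to 306 FPKM in the same order of groups. The duct keratin Krt19 stood at 386, 343 and 377 FPKM in pregnant and 337, 287 and 220 FPKM in non-pregnant libraries 1 to 3. All 14 biliary markers had a log2 change above 0 in pregnancy, and 0 passed the test. RNA of other liver cells was present too. Summed over 14 hepatocyte markers it was 2528 to 2893 FPKM in pregnant and 2935 to 3664 FPKM in non-pregnant libraries, most of it albumin (Alb, 2074 to 2274 FPKM and 1973 to 2550 FPKM). Summed over 12 Kupffer cell and macrophage markers it was 110 to 183 FPKM in pregnant and 57.3 to 90.8 FPKM in non-pregnant libraries. Of the 10 that were tested all lay above 0, and Cd5l, C1qc and C1qa were called higher (limma adjusted p = 0.0357 each). Csf1r and Cd68, the largest parts of this sum in every library, were nearly even and overlapped between groups. Their means were 34.7 and 38.9 FPKM in pregnant and 32.5 and 38.1 FPKM in non-pregnant libraries (log2 changes 0.16 and 0.03). Clec4f, specific to Kupffer cells, stood at 18.0, 14.2 and 5.90 FPKM in pregnant libraries 1 to 3 and at 1.07, 1.51 and 0.299 FPKM in non-pregnant libraries 1 to 3. The 3 calls became 6 without pregnant library 3 or without non-pregnant library 2, and 0 without any one of the others or with no filter on low values. The endothelial markers, 10 in number, summed to 18.3 to 24.3 FPKM in pregnant libraries and to 30.3, 187 and 15.3 FPKM in non-pregnant libraries 1 to 3, so that non-pregnant library 2 stood apart. Stellate cell and lymphocyte markers gave 0 calls, with sums of 36.9 to 42.7 and 3.27 to 3.77 FPKM in pregnant and 39.1 to 43.2 and 1.75 to 2.43 FPKM in non-pregnant libraries. In bulk samples, fewer cells of a type and less RNA per cell cannot be told apart.

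Of the 39 receptors, 30 were expressed, defined as 1 FPKM or more on average over all 6 libraries, and 17 of these exceeded 10 FPKM. A further 6 lay between 0.1 and 1 FPKM and 3 below 0.1 FPKM, and 0 were absent from every library. The median level of the 30 was 14.3 FPKM, against 8.53 FPKM for all 11412 genes that met this limit. The orphan receptor Nr4a1 was the most abundant at a mean of 109 FPKM, higher than 98.9% of all genes in the table. Rxra, the common dimer partner, followed at 49.2 FPKM, then Nr5a2 at 37.5, Rarg at 37.3 and Thra at 35.1 FPKM. These 4 receptors overlapped in their values over libraries and were not separable in order. The mean of Rxra was raised by non-pregnant library 3, and its pregnant mean of 37.3 FPKM equalled that of Nr5a2 to 3 digits. At the low end of the expressed receptors stood Nr6a1, Thrb and Pparg, at means of 2.75, 2.99 and 3.11 FPKM.

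**Figure D1:**
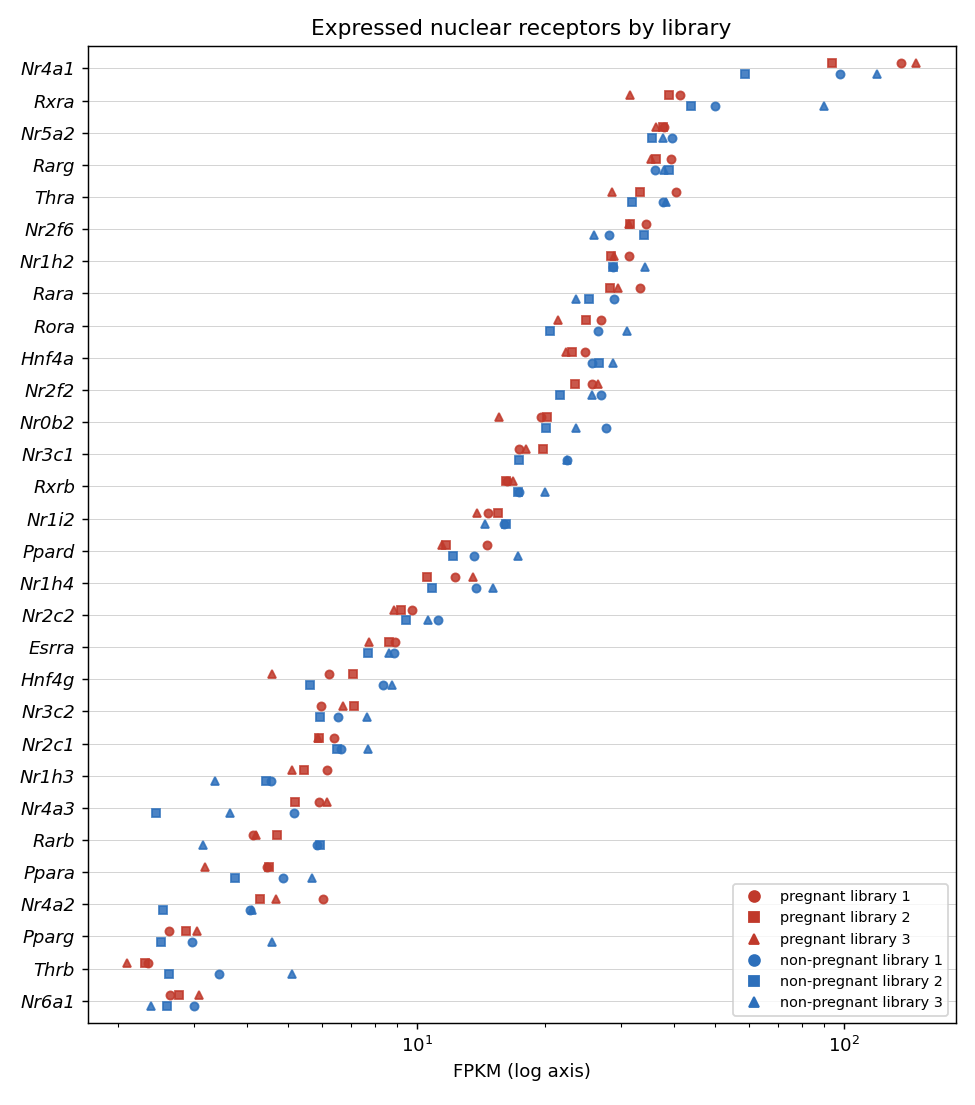
FPKM (log axis) of the 30 expressed receptors, 1 row per gene ordered by mean level. Red points are the pregnant and blue points the non-pregnant libraries, with circle, square and triangle for libraries 1, 2 and 3. Nr4a1 lies above all others, and the Rxra value of non-pregnant library 3 (89.8 FPKM) lies far to the right of its other 5 values.

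No receptor passed the test between pregnant and non-pregnant cells. With limma on log2(FPKM + 1), adjusted over all 11412 genes, 0 of the 30 expressed receptors were called, against 0.0876% of all genes tested (0.0613% higher and 0.0263% lower), and their adjusted p ran from 0.301 to 0.979. At an unadjusted limma p under 0.05 there were 7 receptors (23.3%), where 13.4% of all genes tested passed, with 3 higher (7.09% of all genes were) and 4 lower (6.3%) in pregnancy. That count was 1 without pregnant library 3, 4 without pregnant library 1 and 10 without non-pregnant library 2, and 4 with no filter on low values. Higher in pregnancy were Nr1h3, Nr4a3 and Nr4a2, and lower were Thrb, Hnf4a, Rxra and Nr0b2. The values of the groups did not overlap for 8 receptors (26.7%), against 22.1% of all genes. Of these, 3 were higher (9.9% of all genes were) and 5 lower (12.2%). The receptors' median log2 change was -0.08, beside -0.02 for all genes tested, with 21 below 0 and 9 above. Below 0 there were 19 under median ratio scaling or quantile normalisation, and 17 without non-pregnant library 3. With limma-voom, where Rxra was not fitted because its fragments were not recovered, there were 18. For 19 of the 30 the 95% interval of the log2 change lay wholly between -0.5 and 0.5. Limma-voom on the recovered fragments, again without Rxra, called 0 receptors, and limma with array weights called 3, Nr1h3, Thrb and Nr0b2, where it called 11.4% of all genes.

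**Figure D2:**
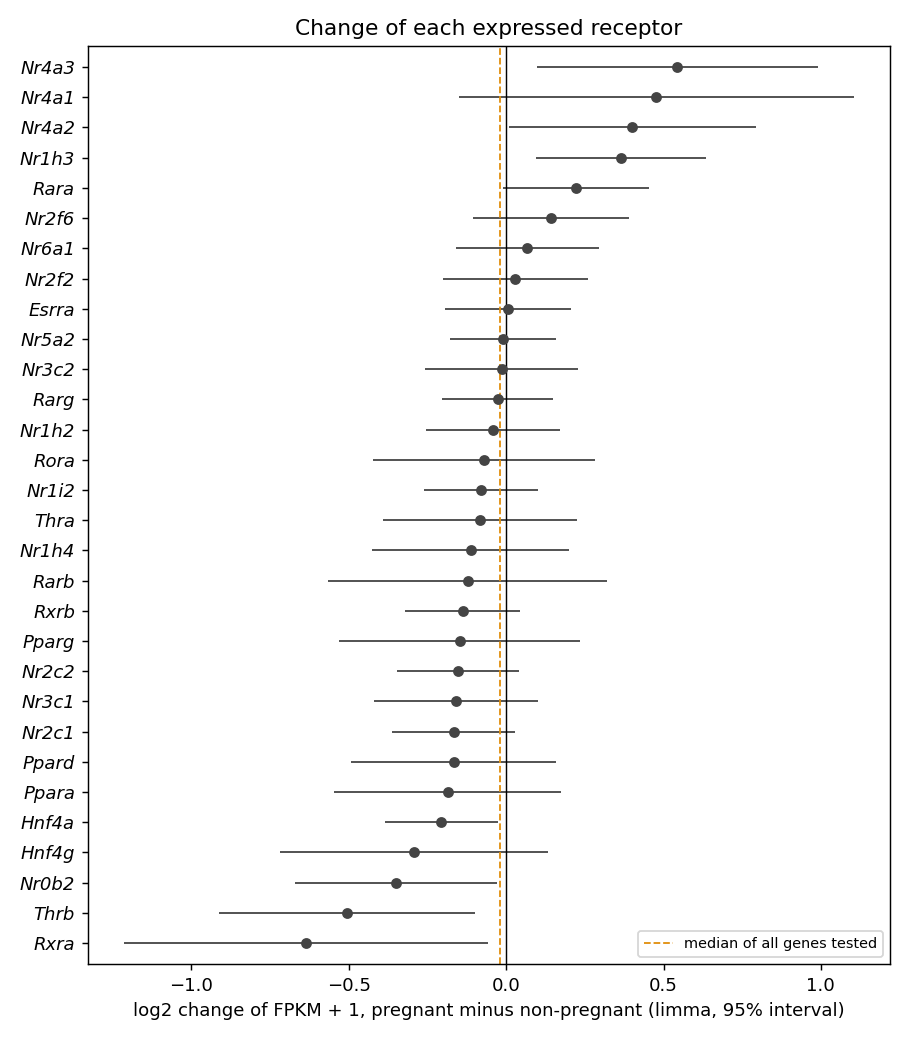
Log2 change of FPKM + 1, pregnant minus non-pregnant, for the 30 expressed receptors, with 95% intervals from limma. The dashed line is the median of all genes tested (-0.02). Points run from -0.64 for Rxra to 0.54 for Nr4a3, and 22 of 30 lie within 0.25 of 0.

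The NR4A receptors are orphan receptors whose genes are switched on within minutes by many stimuli, including cyclic AMP and growth factors, and all 3 members of the group had higher means in pregnancy. Their promoters are shown because all 3 genes were highest in pregnant libraries 1 and 3 and lowest in non-pregnant library 2. The order of the other libraries differed between the genes. Each sequence runs from 250 bases before to 50 after the RefSeq transcription start on GRCm38.p6 (the build mm10), 5′ to 3′ on the gene's strand, and capitals mark TGACG on either strand, the core of the cyclic AMP response element. The windows are chr15:101266596-101266895 (plus strand), chr2:57123954-57124253 (minus strand) and chr4:48045055-48045354 (plus strand). The Nr4a1 window lies inside the span of its gene, which begins at 101254269, and which start site these cells used was not tested.
Nr4a1: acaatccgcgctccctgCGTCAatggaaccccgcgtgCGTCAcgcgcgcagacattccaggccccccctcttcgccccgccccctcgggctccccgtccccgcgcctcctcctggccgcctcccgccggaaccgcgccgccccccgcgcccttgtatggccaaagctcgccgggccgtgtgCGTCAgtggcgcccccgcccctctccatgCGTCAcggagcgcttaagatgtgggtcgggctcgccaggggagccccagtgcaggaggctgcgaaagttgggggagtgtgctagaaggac
Nr4a2: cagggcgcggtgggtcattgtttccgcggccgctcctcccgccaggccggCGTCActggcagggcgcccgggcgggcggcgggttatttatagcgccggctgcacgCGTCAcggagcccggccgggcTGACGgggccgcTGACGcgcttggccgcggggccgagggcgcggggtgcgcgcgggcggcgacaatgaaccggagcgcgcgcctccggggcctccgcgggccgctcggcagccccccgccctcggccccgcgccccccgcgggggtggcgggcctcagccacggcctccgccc
Nr4a3: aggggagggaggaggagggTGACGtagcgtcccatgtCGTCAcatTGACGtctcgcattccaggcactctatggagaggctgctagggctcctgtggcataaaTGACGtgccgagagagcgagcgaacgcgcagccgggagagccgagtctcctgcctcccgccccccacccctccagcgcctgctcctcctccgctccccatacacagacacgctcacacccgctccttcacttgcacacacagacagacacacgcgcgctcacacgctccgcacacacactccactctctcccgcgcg
Each of the 3 windows held 4 matches. In Nr4a1 these began 233, 213, 69 and 40 bases before the start site, in Nr4a2 200, 144, 123 and 111, and in Nr4a3 231, 213, 205 and 147. Of 32851 RefSeq promoter windows of this length, 20.8% held at least 1 match, and the share with 4 was not counted. A match is a run of letters and not a measured binding site.

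Nr4a1 (ENSMUSG00000023034; mm10 chromosome 15, 101254269 to 101274795) stood at 136, 93.8 and 148 FPKM in pregnant libraries 1 to 3 and at 98.0, 58.6 and 120 FPKM in non-pregnant libraries 1 to 3. The groups overlapped, and library 2 was the lowest of each group. Its log2 change was 0.48 ± 0.27 (SE; limma adjusted p = 0.441), with a 95% interval from -0.15 to 1.11. Nr4a2 (ENSMUSG00000026826; chromosome 2, 57106830 to 57124003) stood at 6.03, 4.29 and 4.69 FPKM in pregnant and at 4.08, 2.54 and 4.11 FPKM in non-pregnant libraries. All pregnant values lay above all non-pregnant ones, the closest being 4.29 and 4.11 FPKM, and the log2 change of 0.40 ± 0.17 (SE) did not pass (limma adjusted p = 0.368). Nr4a3 (ENSMUSG00000028341; chromosome 4, 48045153 to 48086447) stood at 5.91, 5.18 and 6.17 FPKM in pregnant and at 5.15, 2.45 and 3.65 FPKM in non-pregnant libraries. The groups again did not overlap, by a margin of 5.18 over 5.15 FPKM, and its log2 change was 0.54 ± 0.19 (SE; limma adjusted p = 0.323). Non-pregnant library 2, the library with the highest sum of endothelial markers, was the lowest of all 6 for each of the 3 genes. Without it their log2 changes were 0.19, 0.23 and 0.33 for Nr4a1, Nr4a2 and Nr4a3, and the part of endothelial RNA in these values was not tested. The germ cell nuclear factor Nr6a1, an orphan receptor known as a repressor in early embryos, stood at 2.83 ± 0.23 FPKM in pregnant and 2.66 ± 0.32 FPKM in non-pregnant libraries (SD, n = 3 each).

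**Figure D3:**
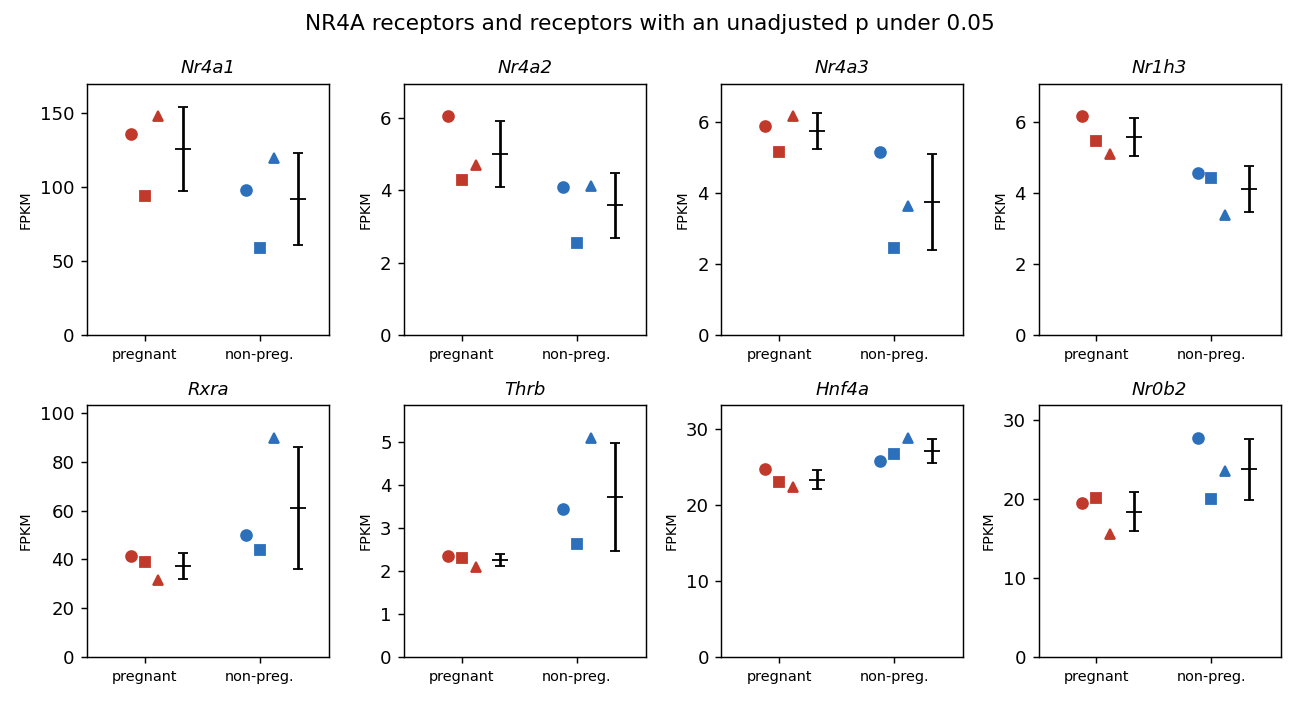
FPKM per library (linear axes from 0) for the NR4A receptors and for Nr1h3, Rxra, Thrb, Hnf4a and Nr0b2, pregnant in red at the left and non-pregnant in blue at the right of each panel. Circle, square and triangle are libraries 1, 2 and 3, and black bars give the mean ± SD of 3 libraries. Nr4a1 and Nr0b2 overlap between groups, and the other 6 do not.

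The retinoid X receptors are the shared partners of the heterodimeric receptors. Rxra (ENSMUSG00000015846; chromosome 2, 27676440 to 27762957) stood at 41.4, 39.02 and 31.5 FPKM in pregnant libraries 1 to 3 and at 49.9, 43.8 and 89.8 FPKM in non-pregnant libraries 1 to 3. All pregnant values lay below all non-pregnant ones, and non-pregnant library 3 stood far above the rest. The log2 change was -0.64 ± 0.25 (SE; limma adjusted p = 0.354), the lowest of the 30, and it was -0.33 without non-pregnant library 3. Rxrb, the second expressed form, stood at 16.3, 16.2 and 16.8 FPKM in pregnant and at 17.4, 17.3 and 19.9 FPKM in non-pregnant libraries. The Rxrb groups did not overlap either, with a log2 change of -0.14 ± 0.08 (SE; limma adjusted p = 0.443). Rxrg, best known from muscle and brain, stayed low at 0.229, 0.310 and 0.224 FPKM in pregnant and 0.0760, 0.0864 and 0.0618 FPKM in non-pregnant libraries. These values rest on 14, 22 and 13 fragments in pregnant and 5, 6 and 5 in non-pregnant libraries. The pooled ratio, pregnant over non-pregnant, was 3.50, with a 95% interval from 1.96 to 6.59 that covers counting error only. Fitted with no filter on low values, Rxrg had the lowest adjusted p of any receptor and did not pass (limma adjusted p = 0.171).

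Among the receptors for thyroid hormone and retinoic acid 4 of 5 lay below 0 and 0 were called. Thrb (ENSMUSG00000021779; chromosome 14, 17660261 to 18038090), the thyroid hormone receptor typical of hepatocytes, stood at 2.35, 2.30 and 2.10 FPKM in pregnant and at 3.44, 2.63 and 5.09 FPKM in non-pregnant libraries. The groups did not overlap, with non-pregnant library 3 again the highest. Its log2 change was -0.51 ± 0.18 (SE; limma adjusted p = 0.319), and -0.31 without non-pregnant library 3. Thra, the more widespread form, was far more abundant, at 40.4, 33.4 and 28.7 FPKM in pregnant and 37.7, 32.0 and 38.4 FPKM in non-pregnant libraries, and its groups overlapped. Of its exon bases 5.70% are shared with Nr1d1 on the other strand, which averaged 149 FPKM, and without a stated strand setting in the counting their reads cannot be told apart. Of the retinoic acid receptors, Rarg averaged 37.0 ± 2.11 FPKM in pregnant and 37.7 ± 1.45 FPKM in non-pregnant libraries (SD, n = 3 each), with a 95% interval of the log2 change from -0.20 to 0.15. Rara stood at 33.4, 28.3 and 29.6 FPKM in pregnant and at 28.9, 25.3 and 23.6 FPKM in non-pregnant libraries (log2 change 0.22 ± 0.10, SE; limma adjusted p = 0.385), with overlap. Rarb, itself a retinoic acid target, stood at 4.35 ± 0.30 FPKM in pregnant and 4.97 ± 1.58 FPKM in non-pregnant libraries (SD, n = 3 each), and 34.1% of its exon bases are shared with Top2b on the other strand.

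Promoters of Rxra and Thrb are printed because these genes had the lowest log2 changes and were both highest in non-pregnant library 3. For each gene RefSeq gives 2 start sites, and the window shown is the one that holds AGGTCA on either strand, the hexamer that most receptors of the superfamily recognise, in capitals. The windows are chr2:27709042-27709341 and chr14:17660710-17661009, both on the plus strand of GRCm38.p6. Both lie inside the spans of their genes, which begin at 27676440 for Rxra and 17660261 for Thrb. Which start site these cells used was not tested.
Rxra: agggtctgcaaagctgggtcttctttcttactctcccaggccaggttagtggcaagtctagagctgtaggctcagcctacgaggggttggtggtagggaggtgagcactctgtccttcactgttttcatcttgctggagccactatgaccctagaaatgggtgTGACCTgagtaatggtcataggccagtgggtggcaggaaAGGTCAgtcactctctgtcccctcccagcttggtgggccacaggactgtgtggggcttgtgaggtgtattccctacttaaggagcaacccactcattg
Thrb: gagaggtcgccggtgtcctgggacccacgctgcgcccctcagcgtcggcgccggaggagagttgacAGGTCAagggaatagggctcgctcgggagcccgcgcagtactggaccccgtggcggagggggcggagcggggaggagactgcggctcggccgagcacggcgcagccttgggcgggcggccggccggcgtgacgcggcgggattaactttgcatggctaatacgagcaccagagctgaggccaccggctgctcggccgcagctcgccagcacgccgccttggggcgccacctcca
The Rxra window held 2 matches, beginning 87 and 48 bases before the start site, and the Thrb window held 1, beginning 184 bases before it. Of all 32851 windows 16.3% held the hexamer. Of the 56 windows of the 36 receptors with an entry 10 held it, belonging to 9 receptors. TGACG was in 16 of these 56 windows, belonging to 14 receptors. Both strands were searched. AGGTCA reads TGACCT on the other strand and so shares the letters TGAC with TGACG, but the letters after them differ.

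The sensors of bile acids, drugs and vitamin D were led by Nr0b2, a receptor without a DNA-binding domain (also called SHP) that represses bile acid synthesis downstream of the bile acid receptor. Nr0b2 (ENSMUSG00000037583; chromosome 4, 133553376 to 133556536) stood at 19.6, 20.1 and 15.6 FPKM in pregnant and at 27.8, 20.04 and 23.6 FPKM in non-pregnant libraries. The groups overlapped through non-pregnant library 2, and the log2 change was -0.35 ± 0.14 (SE; limma adjusted p = 0.355). Its activator Nr1h4, the bile acid receptor FXR, stood at 12.3, 10.5 and 13.6 FPKM in pregnant and at 13.8, 10.8 and 15.1 FPKM in non-pregnant libraries, also overlapping (log2 change -0.11 ± 0.13, SE; limma adjusted p = 0.698). Nr1i2, the xenobiotic receptor PXR, was nearly even at 14.6, 15.5 and 13.8 FPKM in pregnant and 16.0, 16.2 and 14.5 FPKM in non-pregnant libraries, with a 95% interval of the log2 change from -0.26 to 0.10. Nr1i3, the xenobiotic receptor CAR of hepatocytes, was low at 0.0510 to 0.205 FPKM in pregnant and 0.0643 to 0.277 FPKM in non-pregnant libraries, and 74.8% of its exon bases are shared with Tomm40l on the other strand. The vitamin D receptor Vdr was also low, at 0.226, 0.149 and 0.140 FPKM in pregnant and 0.618, 0.0702 and 0.533 FPKM in non-pregnant libraries. Its non-pregnant values lay on both sides of the pregnant ones, with 34, 26 and 20 fragments in pregnant and 100, 12 and 106 in non-pregnant libraries.

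Of the sterol and fatty acid sensors 1 of 6 lay above 0. This was Nr1h3, the liver X receptor alpha, which responds to oxysterols and is strongly expressed in hepatocytes and macrophages. Nr1h3 (ENSMUSG00000002108; chromosome 2, 91184061 to 91202834) stood at 6.15, 5.46 and 5.09 FPKM in pregnant and at 4.55, 4.43 and 3.37 FPKM in non-pregnant libraries. All pregnant values lay above all non-pregnant ones, with a log2 change of 0.36 ± 0.12 (SE; limma adjusted p = 0.301), and 0.25 without non-pregnant library 3. The summed Kupffer cell and macrophage markers were higher in all 3 pregnant libraries too, whereas the summed hepatocyte markers were lower in all 3. The part of macrophage or hepatocyte RNA in the Nr1h3 values was not tested. The ubiquitous liver X receptor beta, Nr1h2, was more abundant at 29.7 ± 1.57 FPKM in pregnant and 30.6 ± 3.17 FPKM in non-pregnant libraries (SD, n = 3 each), with a 95% interval of the log2 change from -0.25 to 0.17. Among the fatty acid receptors Ppard was the most abundant, at 12.6 ± 1.72 FPKM in pregnant and 14.3 ± 2.66 FPKM in non-pregnant libraries, followed by Ppara at 4.05 ± 0.74 and 4.76 ± 0.97 FPKM and Pparg at 2.86 ± 0.22 and 3.36 ± 1.08 FPKM in the same order of groups (SD, n = 3 each). The 3 genes overlapped between groups and were each highest in non-pregnant library 3. Rora, a clock activator and sterol-binding receptor, stood at 24.5 ± 2.83 FPKM in pregnant and 26.0 ± 5.25 FPKM in non-pregnant libraries (SD, n = 3 each).

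Hnf4a, which defines hepatocyte identity, was expressed at 24.7, 23.0 and 22.3 FPKM in pregnant and at 25.8, 26.7 and 28.8 FPKM in non-pregnant libraries. Its groups did not overlap, and the log2 change of -0.21 ± 0.08 (SE) did not pass (limma adjusted p = 0.342). Of the 14 hepatocyte markers 13 were tested, and 11 lay below 0 in pregnancy with a median log2 change of -0.17. Of these Ahsg, the plasma protein fetuin-A, was called lower (limma adjusted p = 0.0368), a call lost with no filter on low values or without any one library other than non-pregnant library 2. The part of hepatocyte RNA in the Hnf4a values was not tested. Hnf4g, the related gene of gut and kidney epithelia, stood at 6.24, 7.09 and 4.58 FPKM in pregnant and at 8.35, 5.61 and 8.72 FPKM in non-pregnant libraries, with overlap. Nr5a2, which in liver drives bile acid synthesis genes, was nearly even, at 37.9, 37.7 and 36.4 FPKM in pregnant and 39.5, 35.6 and 37.7 FPKM in non-pregnant libraries. Its log2 change was -0.01 ± 0.07 (SE; 95% interval from -0.18 to 0.16), and it was 0.01 under median ratio scaling, quantile normalisation or limma-voom.

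Receptors for the steroid hormones of pregnancy were scarce in these cells. Pgr, the progesterone receptor, stood at 0.220, 0.182 and 0.190 FPKM in pregnant and at 0.0735, 0.0774 and 0.120 FPKM in non-pregnant libraries, without overlap. The values rest on 50, 48 and 41 fragments in pregnant and 18, 20 and 36 in non-pregnant libraries, and pooled over libraries the level ratio was 2.15 (95% counting interval from 1.61 to 2.89). Fitted with no filter on low values its log2 change was 0.13 ± 0.03 (SE) and did not pass (limma adjusted p = 0.207). Esr1, the main oestrogen receptor of liver, stood at 0.662, 0.642 and 0.575 FPKM in pregnant and at 0.894, 0.632 and 1.04 FPKM in non-pregnant libraries, overlapping through non-pregnant library 2. Esr2 had at most 4 fragments in any library. The corticosteroid receptors were the expressed members of this class. Nr3c1, the glucocorticoid receptor, stood at 17.4, 19.7 and 18.0 FPKM in pregnant and at 22.5, 17.3 and 22.4 FPKM in non-pregnant libraries. Nr3c2, the mineralocorticoid receptor, stood at 6.61 ± 0.58 FPKM in pregnant and 6.71 ± 0.88 FPKM in non-pregnant libraries (SD, n = 3 each). Both overlapped between groups (limma adjusted p of 0.523 and 0.956).

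**Figure D4:**
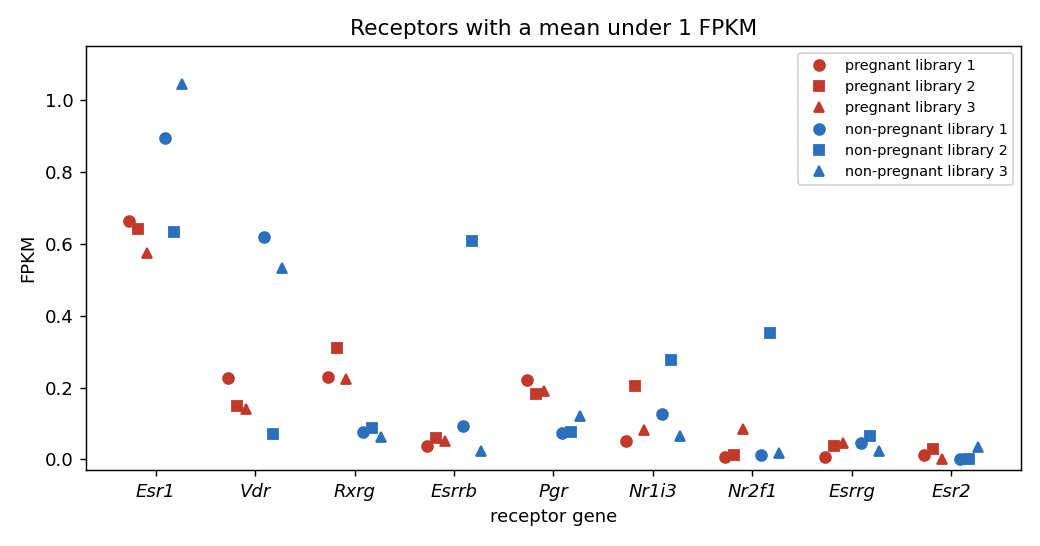
FPKM (linear axis) of the 9 receptors with a mean under 1 FPKM, pregnant libraries in red at the left and non-pregnant libraries in blue at the right of each gene, with circle, square and triangle for libraries 1, 2 and 3. Pgr and Rxrg are higher in all 3 pregnant libraries, and Esrrb and Nr2f1 stand out in non-pregnant library 2.

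The COUP-TF and testicular receptors are orphan receptors that often act as repressors. Nr2f6 was the most abundant at 32.4 ± 1.76 FPKM in pregnant and 29.4 ± 4.13 FPKM in non-pregnant libraries, then Nr2f2, which in liver marks vessels and mesenchyme, at 25.2 ± 1.599 and 24.8 ± 2.80 FPKM in the same order of groups (SD, n = 3 each). Nr2c2 stood at 9.26 ± 0.45 FPKM in pregnant and 10.4 ± 0.88 FPKM in non-pregnant libraries (SD, n = 3 each), and Nr2c1 at 6.39, 5.91 and 5.88 FPKM in pregnant and 6.65, 6.50 and 7.67 FPKM in non-pregnant libraries. Only Nr2c1 of this group had no overlap, with a log2 change of -0.17 ± 0.09 (SE; limma adjusted p = 0.417). Shared exon bases on the other strand reach 54.4% of Nr2f6, with Ocel1, and 30.7% of Nr2c2, with Mrps25. Nr2f1 had 1, 2 and 11 fragments in pregnant and 2, 54 and 3 in non-pregnant libraries. Of the oestrogen-related receptors, which act on mitochondrial genes, only Esrra was expressed, at 8.41 ± 0.62 FPKM in pregnant and 8.37 ± 0.62 FPKM in non-pregnant libraries (SD, n = 3 each). Esrrb had 6, 11 and 8 fragments in pregnant and 16, 111 and 5 in non-pregnant libraries, and Esrrg 1 to 7 in pregnant and 5 to 12 in non-pregnant libraries. Nr2f1 and Esrrb were thus highest in the library with the most endothelial RNA, where the endothelial receptor gene Kdr stood at 25.8 FPKM. Nr2f2, the gene of vessels and mesenchyme, was instead lowest in that library, at 21.6 FPKM against 23.4 to 26.9 FPKM in the others. The part of endothelial RNA in the values of these receptors was not tested.

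The library at the top or bottom of the 6 was often the same across receptors. Non-pregnant library 3 was the highest of the 6 for 13 of the 30 expressed receptors (43.3%), as it was for 35.8% of all genes tested. Non-pregnant library 2 was the lowest for 10 of the 30 (33.3%; 14.2% of all genes) and pregnant library 3 for 12 (40.0%; 21.1%). Pregnant library 1 was the lowest for 0 of the 30, and for 12.6% of all genes.

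**Figure D5:**
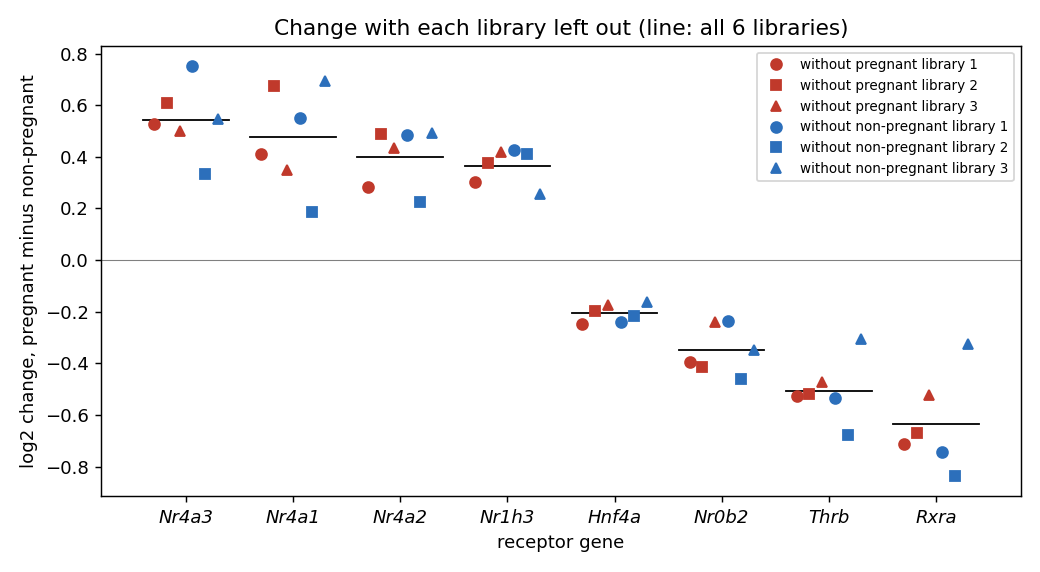
Log2 change, pregnant minus non-pregnant, of 8 receptors when each library is left out in turn. Black lines give the value with all 6 libraries, and colours and shapes name the library left out. All 8 keep their sign. Except for Nr4a1 and Nr0b2 the groups did not overlap, so leaving out 1 library could not change the sign. Leaving out non-pregnant library 2 moves Nr4a1 to 0.19, and leaving out non-pregnant library 3 moves Rxra to -0.33.

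Genes for proteins that work with the receptors gave 0 calls in all 3 lists. All 14 coactivators were tested, with 3 above and 11 below 0 and a median log2 change of -0.15. Ncoa3, a coactivator of steroid receptors, had the smallest p of them, at 21.0, 20.8 and 20.8 FPKM in pregnant and 25.4, 26.0 and 22.8 FPKM in non-pregnant libraries (limma adjusted p = 0.302). Of the 10 corepressors, Nr0b2 among them, 9 lay below 0 (median -0.15). Of the 8 chaperones of steroid receptors 4 lay above and 4 below 0, and Fkbp5, which is also a glucocorticoid target, had the smallest p (limma adjusted p = 0.411). Fkbp5 stood at 8.95, 6.93 and 6.81 FPKM in pregnant and 9.65, 8.74 and 28.7 FPKM in non-pregnant libraries. The enzymes that make or clear hormones and other ligands held the only call in these lists. Of 26 enzymes 15 were tested, and Hsd17b13, a lipid droplet enzyme that can oxidise steroids and retinol, fell to 1.55, 1.43 and 1.41 FPKM in pregnant libraries, against 3.14, 3.88 and 3.73 FPKM in non-pregnant libraries (log2 change -0.89; limma adjusted p = 0.0357). The list held 2 calls without non-pregnant library 2, and 0 without any one of the other 5 libraries or with no filter on low values. Hsd17b13 is best known from hepatocytes, whose summed markers were lower in all 3 pregnant libraries. Alb, most of that sum, overlapped between groups, with 2274 FPKM in pregnant library 1 and 1973 FPKM in non-pregnant library 1. The called marker Ahsg did not overlap, at 195, 221 and 143 FPKM in pregnant and 516, 502 and 664 FPKM in non-pregnant libraries. The part of hepatocyte RNA in the Hsd17b13 values was not tested. Aldh1a2, which makes retinoic acid, stood at 12.5, 11.6 and 21.5 FPKM in pregnant and 8.003, 7.25 and 4.21 FPKM in non-pregnant libraries (limma adjusted p = 0.279). Dio1, which activates thyroid hormone and is its target, stood at 3.45, 3.04 and 2.89 FPKM in pregnant and 4.86, 4.60 and 3.85 FPKM in non-pregnant libraries (limma adjusted p = 0.293).

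Known target genes of the receptors gave 0 calls in each of 9 lists. Without non-pregnant library 2 there were 2 calls among liver X receptor targets and 1 among fatty acid receptor targets. Targets of the liver X receptors had 3 of 8 above 0 and a median log2 change of -0.23. Abcg1, a cholesterol exporter, stood at 1.20, 1.13 and 0.774 FPKM in pregnant and 3.29, 2.74 and 5.89 FPKM in non-pregnant libraries (log2 change -1.24; limma adjusted p = 0.184). Mylip, which degrades the LDL receptor, stood at 4.85, 4.37 and 3.53 FPKM in pregnant and 8.89, 12.2 and 6.04 FPKM in non-pregnant libraries (limma adjusted p = 0.279). Abca1, the second exporter, overlapped, at 6.31 to 8.40 FPKM in pregnant and 8.10 to 52.2 FPKM in non-pregnant libraries. The values of Abcg1 and Abca1 thus ran opposite to those of Nr1h3 in group means. Targets of the fatty acid receptors had 2 of 12 above 0 and a median of -0.46. Cpt1a, which carries fatty acids into mitochondria, stood at 31.8, 34.8 and 27.9 FPKM in pregnant and 47.1, 39.5 and 94.6 FPKM in non-pregnant libraries (limma adjusted p = 0.322). Fabp1, a fatty acid carrier of hepatocytes, stood at 9.71, 12.7 and 9.86 FPKM in pregnant and 1.45, 4.01 and 2.52 FPKM in non-pregnant libraries (limma adjusted p = 0.0845). Targets of the glucocorticoid receptor had 1 of 11 above 0. Every target below 0 except Dusp1 was highest in non-pregnant library 3. For Mt1 and Mt2 that library, at 51.5 and 79.1 FPKM, was the only non-pregnant one above the pregnant values. Non-pregnant libraries 1 and 2 lay below all pregnant ones for both, at 15.5 and 18.1 FPKM for Mt1 and 16.9 and 16.9 FPKM for Mt2. Tat, which breaks down tyrosine in hepatocytes, stood at 13.6, 12.3 and 9.41 FPKM in pregnant and 13.05, 14.3 and 15.4 FPKM in non-pregnant libraries, with overlap (limma adjusted p = 0.405). As with Rxra, non-pregnant library 3 was the highest for Abcg1, Abca1, Cpt1a and Fkbp5. Per1, the clock gene, was the glucocorticoid target above 0, at 60.7, 55.7 and 73.6 FPKM in pregnant and 55.3, 48.9 and 46.4 FPKM in non-pregnant libraries (limma adjusted p = 0.338).

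Targets of thyroid hormone had 2 of 5 above 0, and Klf9, a target of both thyroid hormone and glucocorticoid, stood at 23.8, 24.3 and 21.3 FPKM in pregnant and 30.6, 25.6 and 53.8 FPKM in non-pregnant libraries (limma adjusted p = 0.362). Xenobiotic targets had 2 of 7 above 0. Gstm1, a glutathione transferase and the smallest p among them, stood at 343, 411 and 462 FPKM in pregnant and 455, 550.4 and 559 FPKM in non-pregnant libraries, with overlap (limma adjusted p = 0.354). Por, the electron donor of the cytochromes P450, stood at 38.6, 39.8 and 41.2 FPKM in pregnant and 44.997, 44.2 and 60.2 FPKM in non-pregnant libraries (limma adjusted p = 0.362). Klf9 and Por lay lower in all pregnant libraries, and Klf9, Gstm1 and Por were highest in non-pregnant library 3. Retinoic acid targets had 3 of 5 above 0, with Crabp2, a carrier of retinoic acid, at 3.41, 3.38 and 3.20 FPKM in pregnant and 2.83, 2.15 and 1.74 FPKM in non-pregnant libraries (limma adjusted p = 0.298). Few targets of the other receptors were expressed. Of the bile acid targets Nr0b2 and Slc10a2 were tested, and Slc10a2, the bile acid importer of duct cells, stood at 3.88, 4.06 and 5.92 FPKM in pregnant and 3.35, 3.14 and 2.22 FPKM in non-pregnant libraries (limma adjusted p = 0.301). Slc34a2, a phosphate carrier and the 1 vitamin D target tested, stood at 5.51, 4.70 and 7.05 FPKM in pregnant and 4.55, 4.06 and 3.87 FPKM in non-pregnant libraries (limma adjusted p = 0.322). Of the oestrogen and progesterone targets, Ccnd1 and Myc were tested, growth genes that answer to many other signals. Ccnd1 stood at 153, 151 and 234 FPKM in pregnant and 76.7, 130 and 33.04 FPKM in non-pregnant libraries (log2 change 1.33 ± 0.44, SE; limma adjusted p = 0.308). Myc stood at 75.4, 81.1 and 86.4 FPKM in pregnant and 59.6, 69.1 and 67.7 FPKM in non-pregnant libraries (limma adjusted p = 0.301).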

How the data were processed

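RNA of 6 sorted samples was made into ribosome-depleted libraries with the KAPA RNA HyperPrep kit, per the labels' protocols. The authors deposited FPKM values, 1 column per sample. Per the submitters' processing notes, STAR 2.7.9a, HTSeq 0.13.5, cutadapt 3.4, DESeq2 1.30.1 and mm10 were used, with no roles stated, and the strand setting of the counting is not given in the sources used here. Groups and replicate numbers came from the sample titles. The sample descriptions number non-pregnant library 3 as 4.

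FPKM times the union exon length of GENCODE vM21 (mm10; 28 genes had none) was a whole multiple of 1 step per library for 98.5% of values above 0, within a tolerance of 0.01, which gave recovered fragments. Rxra gave no whole fragments. The 11412 genes averaging 1 FPKM or more were tested two-sided on log2(FPKM + 1), a scale that shrinks changes of low genes. The tool was limma 3.58.1 with a trended prior, in R 4.3.3, and Benjamini-Hochberg adjustment ran over all genes tested with a threshold of 0.05. Fragments carry no molecular identifiers, so counting intervals (exact binomial, 95%) cover counting error only. Tables used Python 3.11.15 and pandas 2.3.3. Fits were tested on simulated data. Promoters are RefSeq windows of GRCm38.p6, and 36 of 39 receptors matched.

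All 39 receptors are named, and of related lists any called gene and otherwise up to 3 with the smallest p. Krt19, Epcam, Sox9, Alb and Clec4f are always given. The list of other family members is not reported here. Members and lists were chosen with earlier results of these data known. Kdr and the genes whose promoters are shown were chosen after their values were seen. Alternatives were other pseudocounts (0.1 and 0.5 FPKM), filters, scalings, a replicate block, robust empirical Bayes, array weights, limma-voom and leaving out each library.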

Additional observations from a re-analysis of the deposited data

How the results depend on the processing

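The count of called receptors was 0 under every alternative run except array weights, which called 3, and the 30 expressed receptors numbered 30 under median ratio scaling and with each library left out. With 1 library left out the receptors' median log2 change ran from -0.13 to -0.02, and the count at an unadjusted limma p under 0.05 from 1 (without pregnant library 3) to 10 (without non-pregnant library 2). The replicate block gave 0 calls and a median of -0.08. Same-numbered libraries did not deviate together (Pearson r of deviations across genes 0.068, 0.019 and -0.14), so the numbers were not taken as pairs. A correlation across genes cannot exclude pairing in single genes. With the block the SE fell from 0.27 to 0.11 for Nr4a1, 0.17 to 0.11 for Nr4a2 and 0.19 to 0.14 for Nr4a3. Their limma adjusted p with the block was 0.370, 0.413 and 0.394. For Hnf4a and Rxra the SE rose, from 0.077 to 0.097 and from 0.249 to 0.254. The block gave 13 calls over all genes where the unblocked fit gave 10. Over all genes array weights called 1301, robust empirical Bayes 5, limma-voom 1 and no filter 0, and leaving out 1 library gave 0 to 133. The cause was not tested.

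With no filter the single call among ligand enzymes, the single call among hepatocyte markers and the 3 among Kupffer cell markers became 0, 0 and 0. With 1 library left out these lists ranged from 0 to 2, 0 to 2 and 0 to 6, liver X receptor targets from 0 to 2 and fatty acid receptor targets from 0 to 1. Signs held in every alternative for 19 receptors and changed in some for 11. Nr3c2 was 0.0033 under median ratio scaling, 0.0085 under quantile normalisation, 0.0077 with array weights and 0.0033 with limma-voom. Nr5a2 was 0.011, 0.0095 and 0.011 under median ratio scaling, quantile normalisation and limma-voom. With array weights Rarg was 0.034, Nr1h2 0.038, Nr2f2 -0.079, Esrra -0.022 and Nr6a1 -0.060. With 1 library left out Nr3c2 ran from -0.089 to 0.072, Thra from -0.21 to 0.033, Rarb from -0.36 to 0.0049, Rarg from -0.070 to 0.0065, Nr1h2 from -0.083 to 0.040, Pparg from -0.29 to 0.045, Rora from -0.23 to 0.061, Nr5a2 from -0.047 to 0.026, Nr2f2 from -0.063 to 0.090 and Esrra from -0.049 to 0.060. Depth limits Pgr, Rxrg, Vdr, Nr1i3, Esr2, Nr2f1, Esrrb and Esrrg, which had few fragments.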
